A study of Mus musculus with 24 samples.

Results

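Cell division genes are the genes a cell switches on to copy its DNA and to part it between daughter cells. They were followed here through libraries labelled brown fat, from mice kept warm or cold with and without a deletion of TBLR1 and TBL1. A list of 40 gene symbols was matched to the Ensembl identifiers of a count table of 12615 genes, and 18 of the 40 had a row and form the group described. The series holds 24 libraries of total RNA labelled brown fat, 6 mice in each of 4 groups. All 24 mice carried both floxed alleles (TBLR1 fl/fl and TBL1 fl/fl, genes Tbl1xr1 and Tbl1x) and had been given tamoxifen 3 weeks earlier, and the groups labelled BATdKO also carried Ucp1CreERT2 whereas the groups called Cre- did not. Mice came from a room temperature of 22 °C and went straight to 30 °C for 4 days, or stepped down through 18, 16 and 12 °C for 1 day each before 6 days at 8 °C. The labels call the mice female and write the age at tamoxifen as 5 years, a figure repeated here only as written. The study's own text gives another number of days at 8 °C, another sex and smaller groups for these RNA data, and the labels were followed. Ucp1 drives the recombinase, so the deletion is aimed at brown adipocytes. The study's text allows that Ucp1 may come on early in adipogenesis, so that early progenitors could lose the genes too. Which cells lost them was not measured here.

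Before a cell divides, licensing proteins mark the origins of replication, the MCM helicase opens them, and enzymes of nucleotide supply furnish the building blocks. Cyclins with their kinases push the cell from one phase to the next, condensins and topoisomerase II compact and untangle the chromosomes, and kinesins and spindle proteins pull the copies apart. In brown fat, cold is known to recruit dividing progenitor and endothelial cells, while the mature brown adipocyte seldom divides.

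Several features of the libraries bear on every value that follows. The 8 brown adipocyte markers, Ucp1 among them, summed to 533 to 5394 CPM (median 3341) per library, where CPM is counts per 1000000 counts after scaling by the trimmed mean of M-values (TMM). In the same libraries 7 genes that define hepatocytes (Alb, Apoa1, Apoa2, Ttr, Fgb, Serpina1c and Mup3) summed to 27169 to 40113 CPM (median 33592), above the brown adipocyte sum in each of the 24. The brown adipocyte markers were read in each library, but the larger hepatocyte sum goes against the tissue label, and "brown fat" here means only so labelled. From which cells the counts of the cell division genes came was not tested. In bulk RNA, fewer cells of a type and less RNA per cell cannot be told apart. Tbl1xr1 was read at medians of 21.7 and 21.0 CPM in Cre- mice at 30 and 8 °C and of 34.5 and 39.5 CPM in mice labelled BATdKO, and Tbl1x at 39.9 and 40.7 against 55.1 and 54.3 CPM. The medians of both targeted genes were thus higher, not lower, under the BATdKO label. The kit counts the 3′ end of transcripts and the deleted part is not given in the sources used here, so these reads do not check the deletion, and "BATdKO" below means only so labelled. At 30 °C, Cre- mouse 6 had Tbl1xr1 at 38.6 CPM and BATdKO mouse 6 at 17.0 CPM, each inside the range of the other label. Tbl1x in the same mice was at 53.5 and 39.7 CPM, the highest Cre- and the lowest BATdKO value at 30 °C. At 8 °C Tbl1xr1 was at 18.2 to 24.6 CPM in Cre- and 33.7 to 44.3 CPM in BATdKO mice. Total counts ran from 699703 in Cre- mouse 4 at 30 °C to 11527643, and library numbers in the labels run separately for the 30 and 8 °C mice, so temperature and library series cannot be told apart.

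The upstream sequences of 3 members are shown first, because Rrm1 was the member that cold raised in BATdKO mice and Mki67 and Top2a were the pair whose levels moved together from mouse to mouse. RefSeq promoter windows (GRCm38.p6, 250 bases before to 50 after the start) were matched for 16 of the 18 members, all but Ccne2 and Smc4. The 250 bases before the start are printed 5′ to 3′ on the gene's own strand, with Rrm1 at chr7:102441445-102441694 on the plus strand, Mki67 at chr7:135716380-135716629 on the minus strand and Top2a at chr11:99024190-99024439 on the minus strand. Capitals mark, on either strand, CCAAT (the box read by NF-Y), TTTGAA (the cell cycle genes homology region, read by the DREAM and MuvB complexes) and the E2F-type words TTTCGCGC, TTTGGCGC and TTCCCGC, of which the first and second can overlap when they lie on opposite strands.
Rrm1: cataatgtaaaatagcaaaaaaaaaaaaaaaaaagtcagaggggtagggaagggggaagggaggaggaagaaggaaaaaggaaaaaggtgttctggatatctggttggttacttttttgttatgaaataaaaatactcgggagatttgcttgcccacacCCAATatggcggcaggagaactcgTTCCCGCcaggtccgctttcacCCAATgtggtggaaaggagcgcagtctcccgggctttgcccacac
Mki67: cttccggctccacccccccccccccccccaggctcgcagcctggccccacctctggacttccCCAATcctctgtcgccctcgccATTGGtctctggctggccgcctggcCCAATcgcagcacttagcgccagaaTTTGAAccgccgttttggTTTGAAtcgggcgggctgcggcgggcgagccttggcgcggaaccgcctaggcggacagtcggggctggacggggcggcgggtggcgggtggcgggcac
Top2a: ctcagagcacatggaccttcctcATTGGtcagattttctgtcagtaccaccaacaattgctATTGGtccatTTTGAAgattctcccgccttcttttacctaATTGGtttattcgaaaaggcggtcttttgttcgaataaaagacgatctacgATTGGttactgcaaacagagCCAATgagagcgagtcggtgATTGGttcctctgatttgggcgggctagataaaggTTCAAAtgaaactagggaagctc
Rrm1 held 2 CCAAT boxes and 1 TTCCCGC. Mki67 held 3 CCAAT boxes and 2 TTTGAA, and Top2a held 6 CCAAT boxes and 2 TTTGAA. Over whole windows, CCAAT was found in 13 of the 16 matched members and in 41.1% of 27025 genes, TTTGAA in 6 of 16 members and in 20.2% of genes, and any of the 3 E2F-type words in 6 of 16 members and in 6.10% of genes. These are matches of letters, and no binding was measured.

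The 18 members were 5 of 9 replication licensing and fork genes (Mcm3, Mcm5, Mcm6, Mcm7, Pcna), 3 of 4 nucleotide supply genes (Rrm1, Tyms, Tk1), 2 of 7 cyclins and their kinases (Ccne2, Cdk2), all 4 chromosome structure genes (Mki67, Top2a, Smc2, Smc4), 2 of 8 mitotic kinase and checkpoint genes (Aurka, Cdca8) and 2 of 8 spindle and cytokinesis genes (Kif23, Nusap1). The other 22 (Cdc6, Cdc45, Mcm2, Mcm4, Rrm2, Ccne1, Ccna2, Cdk1, Ccnb1, Ccnb2, Aurkb, Plk1, Bub1, Bub1b, Cdc20, Birc5, Kif11, Kif20a, Tpx2, Prc1, Ect2 and Anln) were not analysed here. Mitosis is therefore read from few genes, and the cyclins A and B and Cdk1 that drive mitosis are not among them.

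All 18 members had at least 1 count in each of the 24 libraries and passed the filter on low counts, and 16 of them lay under the median level of the tested genes (9.62 CPM, mean over libraries). Since the kit takes one 3′ tag per transcript, CPM is compared between genes without division by length. Smc4, a core subunit of condensin, was the most abundant member at a mean of 23.0 CPM, followed by Tk1, thymidine kinase, at 12.6 CPM and Mcm7, a subunit of the MCM helicase, at 9.53 CPM. Cdca8, a subunit of the chromosomal passenger complex, was the least abundant at 1.29 CPM, a mean of 8.75 counts per library. Members together took 16440 of 168399568 counts (0.00976%), and the median member had a mean of 27.6 counts per library. The SE of the log2 fold change with cold in Cre- mice ran from 0.12 for Smc4 to 0.36 for Mcm5. Exons of other genes overlap those of Mcm7 (Ap4m1, Cops6), Tk1 (Afmid), Ccne2 (Ints8), Cdk2 (Pmel), Cdca8 (9930104L06Rik) and Nusap1 (Oip5) on the other strand and those of Mcm7 (Mir25, Mir93) and Top2a (Gm23451) on the same strand in the GENCODE vM21 annotation, and since it is not stated whether the counting used strand, reads of these pairs cannot be told apart.

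Summed over the 18 members, the level was 92.5 to 105 CPM (median 97.7) in Cre- mice at 30 °C and 82.3 to 106 CPM (median 86.5) at 8 °C. In BATdKO mice it was 90.7 to 104 CPM (median 98.4) at 30 °C and 94.9 to 128 CPM (median 105) at 8 °C. Under this TMM scaling the lowest median was that of cold Cre- mice and the highest that of cold BATdKO mice, with the ranges of all 4 groups overlapping. On raw library totals the medians were 105.1 and 83.2 CPM in warm and cold Cre- mice and 100.8 and 97.02 CPM in warm and cold BATdKO mice, so the order of the groups depends on the scaling, except that cold Cre- mice were lowest in both, and the direction with cold in BATdKO mice turned. The chromosome structure genes made up the largest share, with 30.6 to 46.7 CPM (median 32.9) in cold Cre- mice and 39.1 to 60.6 CPM (median 42.8) in cold BATdKO mice. Replication genes ran from 18.2 to 23.7 CPM (median 20.9) in cold Cre- mice to 22.1 to 26.9 CPM (median 24.4) in warm Cre- mice, and nucleotide supply genes from 15.0 to 23.1 CPM (median 20.6) in warm Cre- mice to 22.2 to 27.6 CPM (median 23.6) in cold BATdKO mice. No test was made on these sums, whose members were chosen as a list.

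**Figure D1:**
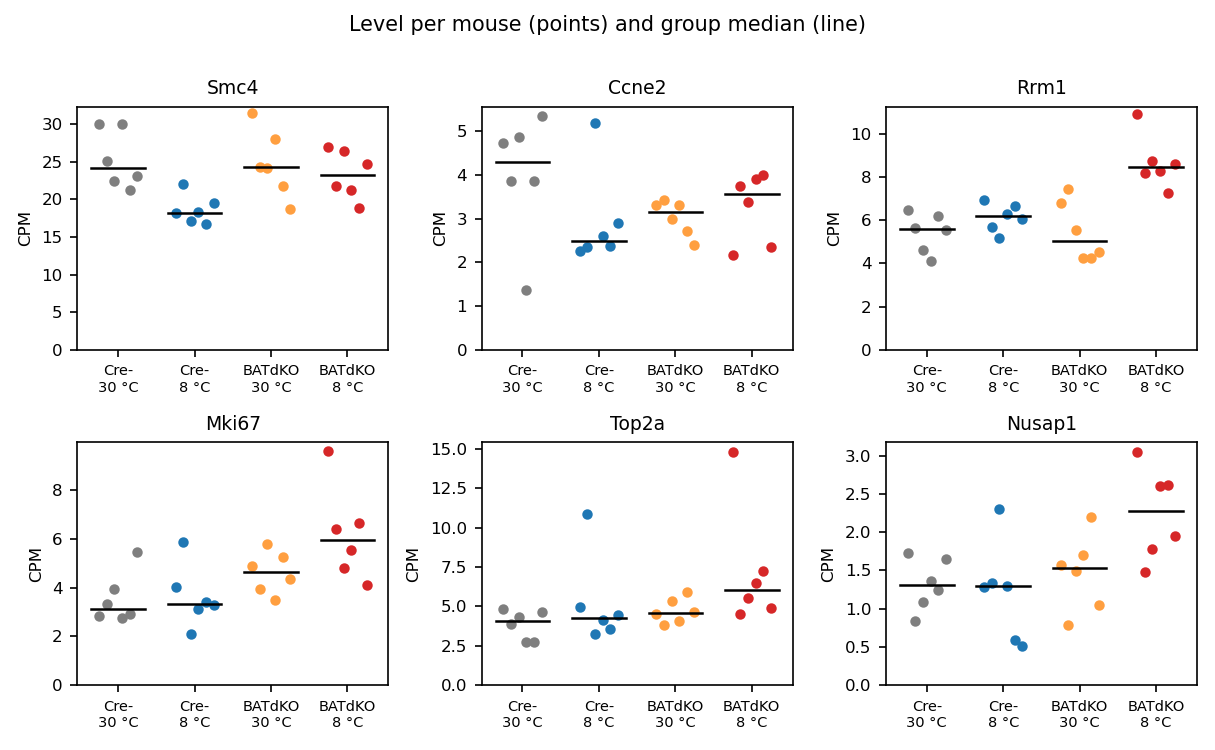
CPM (vertical axis, from 0) of Smc4, Ccne2, Rrm1, Mki67, Top2a and Nusap1 in each mouse (points) of the 4 groups, with the group median as a line. All 6 BATdKO mice at 8 °C lie above all 6 Cre- mice at 8 °C for Rrm1, Smc4 is lower in Cre- mice at 8 °C than at 30 °C with a small overlap, and single high mice stand out for Top2a and Mki67.

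The first comparison asked how cold changed these genes in control mice. In Cre- mice, 8 °C against 30 °C lowered 2 of 18 members, Smc4 and Ccne2, and raised none, by edgeR's quasi-likelihood test on all 24 libraries with Benjamini-Hochberg adjustment over 12485 genes and a threshold of 0.1. Over all genes tested 9.15% were called, 5.57% higher and 3.59% lower, so that 2 of 18 is near the background. DESeq2 on the same libraries gave the same count of 2. The median log2 fold change was -0.06 for the members and -0.02 for all genes, and 6 of 18 members were positive against 46% of genes. A fit on raw library totals in place of TMM, chosen after seeing the data, shifted the median of all genes by -0.18 with cold in Cre- mice and by -0.19 in BATdKO mice, so the fold changes with cold given here are relative to the TMM scale. It turned the share of calls over all genes that were higher from 60.8% to 13.3% in Cre- mice and from 53.2% to 9.07% in BATdKO mice. It called 4 of 18 members lower in Cre- mice, Smc4, Ccne2, Pcna and Mcm7, with 2 of 18 positive beside 20.8% of genes. Of the 12485 genes, that fit called 2826 lower and 433 higher in Cre- mice, so 4 of 18 is near the background. These p-values set the difference between group means against the spread between mice of a group.

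Smc4 (chr3:69004738-69034623, GRCm38, plus strand) was read at 21.3 to 30.1 CPM (median 24.1) in Cre- mice at 30 °C and at 16.7 to 22.1 CPM (median 18.2) at 8 °C. Of the 6 cold mice, 5 lay under all 6 warm mice and mouse 2, at 22.1 CPM, reached into the warm range. The fall was 0.42 on the log2 scale (log2 fold change -0.42, SE 0.12, edgeR adjusted p = 0.0321), and the exact permutation p over all assignments of the 12 mice was 0.00433 (two-sided). In BATdKO mice the same gene stood at 18.8 to 31.5 CPM (median 24.3) warm and 18.8 to 27.0 CPM (median 23.2) cold, with a log2 fold change of -0.10 (95% interval -0.34 to 0.14), which did not pass. The call in Cre- mice held without each mouse in turn (edgeR adjusted p 0.0155 to 0.0996).

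Ccne2, cyclin E2, which with Cdk2 starts DNA replication, was read at 1.37 to 5.35 CPM (median 4.29) in warm and 2.25 to 5.18 CPM (median 2.48) in cold Cre- mice. In 5 of the 6 cold mice it was under 3 CPM (2.25 to 2.91), whereas 5 of the 6 warm mice were at 3.86 to 5.35. The exceptions were cold mouse 3 at 5.18 CPM and warm mouse 4 at 1.37 CPM, which is 1 count in the shallowest library. The log2 fold change was -0.62 (SE 0.20, edgeR adjusted p = 0.0608), while the exact permutation test, which weighs the shallow library as much as the others, gave p = 0.275. Ccne2 was the less firm of both calls: it was lost at a threshold of 0.05, in a fit of Cre- mice alone (edgeR adjusted p = 0.125) and when any of 8 mice was left out, namely Cre- 8 °C mice 1, 2, 4, 5 and 6 and Cre- 30 °C mice 1, 3 and 6 (adjusted p 0.103 to 0.141).

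The remaining 16 members did not pass in Cre- mice, and their log2 fold changes ran from -0.58 for Mcm5 to 0.34 for Top2a. The 5 replication genes were all negative, from -0.58 (Mcm5) to -0.09 (Mcm6), with a median of -0.24, and the 3 nucleotide supply genes were all positive on the TMM scale, from 0.04 (Tk1) to 0.25 (Tyms), but Rrm1 and Tk1 were negative on raw totals (-0.06 and -0.14). Mcm7 was at 8.03 to 11.2 CPM (median 9.80) in warm and 7.23 to 9.99 CPM (median 8.39) in cold Cre- mice, a log2 fold change of -0.18 (95% interval -0.46 to 0.11). Tk1 was at 6.83 to 15.7 CPM (median 12.3) and 11.7 to 16.4 CPM (median 12.6), a log2 fold change of 0.04 (95% interval -0.27 to 0.35). Mki67, the usual marker of cycling cells, had a log2 fold change of -0.01 with an interval of -0.47 to 0.44.

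Markers of other cells moved with temperature in the same libraries. The 8 endothelial markers summed to 172 to 203 CPM (median 191) in warm and 202 to 266 CPM (median 239.9) in cold Cre- mice, and 3 of the 8 were called higher (Pecam1, Kdr and Emcn). Of 5 erythroid markers 4 were in the table and all 4 were called higher, their sum going from 3517 to 4705 CPM (median 3596) to 4598 to 6161 CPM (median 5274). Of 8 skeletal muscle markers the 7 in the table summed to 1.44 to 3072 CPM (median 83.4) and 1.34 to 488 CPM (median 170.3) with 2 called lower by edgeR (Actn3 and Myoz1) and none by DESeq2. Of 8 macrophage markers none was called by either tool or had an unadjusted p under 0.05, and of 10 stromal markers Cd34 was called lower. Of the 8 brown adipocyte markers Ucp1 was called higher and Adipoq lower. Of 11 B and T cell markers only Cd74 and Trbc2 were in the table, and Cd74 was called lower. The part of these cells in the change of Smc4 and Ccne2 was not tested.

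**Figure D2:**
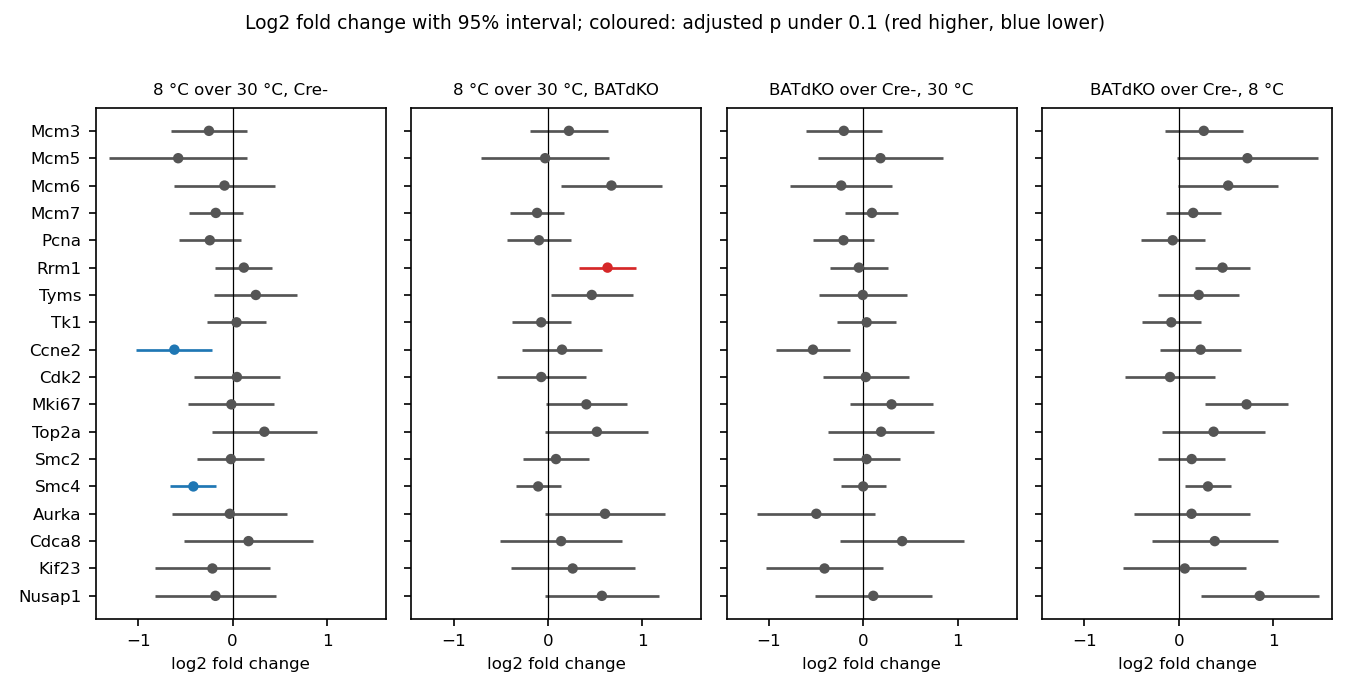
Log2 fold change (points) with its 95% interval (lines) for the 18 members, one panel per comparison, with red for called higher, blue for called lower and grey for the rest. Smc4 and Ccne2 are called lower by cold in Cre- mice, Rrm1 is called higher by cold in BATdKO mice, none is called between genotypes, and at 8 °C most points lie to the right of 0.

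The same question in BATdKO mice gave another gene. Cold raised 1 of 18 members, Rrm1, and lowered none (edgeR quasi-likelihood test, adjusted p under 0.1), where 7.07% of all genes were called, 3.76% higher and 3.31% lower. The median log2 fold change was 0.19 for the members and 0.00 for all genes, and 12 of 18 members were positive against 49.5% of genes. On raw totals Rrm1 was called higher (log2 fold change 0.44, edgeR adjusted p = 0.0413) and Smc4 lower (-0.29, adjusted p = 0.0897), with a median of 0.00 beside -0.19 and 9 of 18 positive beside 18.7%. Over all genes tested, the raw totals gave 255 called higher and 2557 called lower.

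Rrm1 (chr7:102441695-102469771, GRCm38, plus strand), the large subunit of ribonucleotide reductase, was read at 4.23 to 7.46 CPM (median 5.03) in warm and 7.24 to 10.9 CPM (median 8.44) in cold BATdKO mice. A single warm mouse, mouse 2 at 7.46 CPM, reached above the lowest cold mouse, mouse 5 at 7.24 CPM. The rise was 1.55-fold (log2 fold change 0.63, SE 0.15, edgeR adjusted p = 0.00939, exact permutation p = 0.00433), and it kept its call without each mouse in turn (edgeR adjusted p 0.00238 to 0.0288). In Cre- mice Rrm1 went from 4.10 to 6.45 CPM (median 5.60) to 5.18 to 6.91 CPM (median 6.17), a log2 fold change of 0.12 (95% interval -0.18 to 0.42) that did not pass.

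Mcm6, another MCM helicase subunit, and Tyms, thymidylate synthase, were, with Rrm1, the 3 of 18 members higher at an unadjusted p under 0.05 (8.52% of all genes), and neither passed after adjustment. Mcm6 stood at 0.982 to 2.14 CPM (median 1.05) warm and 1.39 to 3.25 CPM (median 1.76) cold, with a log2 fold change of 0.67 (edgeR adjusted p = 0.158). The log2 fold change of Tyms was 0.46 (edgeR adjusted p = 0.252), and those of Nusap1, Aurka, Top2a and Mki67 were 0.57, 0.60, 0.52 and 0.41, each with an interval that took in 0. Leaving out BATdKO mouse 3 at 30 °C brought the count of called members to 2. Endothelial markers were at 177 to 225 CPM (median 206) warm and 203 to 259 CPM (median 224) cold in these mice (Kdr and Emcn called higher) and erythroid markers at 3360 to 4645 CPM (median 3520) and 4313 to 5921 CPM (median 5305) (4 of 4 called higher), 2 of 10 stromal markers (Pdgfra and Col3a1) and Cd74 were called lower, and the part of these cells in the change of Rrm1 was not tested.

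The genotype comparison at 8 °C called none of the 18 members in edgeR's quasi-likelihood test, where 1.82% of all genes were called. At an unadjusted p under 0.05, 4 of 18 were higher in BATdKO mice (Mki67, Rrm1, Nusap1 and Smc4) and none lower, beside 3.76% of all genes higher and 5.47% lower. Of the 18 log2 fold changes 15 were positive, beside 50% of all genes, and their median was 0.25 beside 0.00 (15 of 18 beside 35.2% and 0.19 beside -0.06 on raw totals, where 22.6% of the calls over all genes were higher in place of 38.3%). DESeq2 called 1 member, Mki67, and a fit of the mice at 8 °C alone called 2, Mki67 and Rrm1, by either tool. The 1.82% of all genes belongs to the main fit, and the share called in those other fits is not given here. The genotype comparison at 8 °C shares the cold BATdKO mice with the cold comparison in BATdKO mice and the cold Cre- mice with that in Cre- mice.

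Mki67 was read at 2.11 to 5.85 CPM (median 3.34) in Cre- mice and 4.11 to 9.58 CPM (median 5.96) in BATdKO mice at 8 °C. Cre- mouse 2, at 5.85 CPM, lay inside the BATdKO range, and the other 5 were at 2.11 to 4.02 CPM, under all BATdKO mice. The log2 fold change was 0.72 (SE 0.21, edgeR adjusted p = 0.122), the exact permutation p was 0.0152, and the value passed the threshold without Cre- mouse 2 (0.89, edgeR adjusted p = 0.0285), without BATdKO mouse 6 (0.80, adjusted p = 0.0936) or without Cre- mouse 6 at 30 °C (0.72, adjusted p = 0.0782). Without the shallow Cre- mouse 4 and both mice 6 at 30 °C, whose Tbl1xr1 lay in the range of the other label, 1 member was called, Mki67 with a log2 fold change of 0.71 and an edgeR adjusted p of 0.0840, a setting chosen after seeing the data. In the warm groups the gene was at 2.73 to 5.46 CPM (median 3.12) and 3.48 to 5.77 CPM (median 4.62).

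Rrm1 was the member whose groups did not overlap at 8 °C, with every BATdKO mouse (7.24 to 10.9 CPM) above every Cre- mouse (5.18 to 6.91 CPM). Among all genes 1.95% had groups that did not overlap in this comparison, 1.07% with BATdKO higher. The log2 fold change was 0.46 (SE 0.14, edgeR adjusted p = 0.145), and the exact permutation p of 0.00216 is the smallest that 6 against 6 can give. It did not pass over all genes without any single mouse either (edgeR adjusted p 0.106 to 0.26).

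Nusap1, a protein that bundles spindle microtubules, was at 0.506 to 2.30 CPM (median 1.29) in Cre- mice and 1.47 to 3.05 CPM (median 2.28) in BATdKO mice at 8 °C, between 4 and 17 counts per library, with a log2 fold change of 0.86 (SE 0.30, edgeR adjusted p = 0.234). Smc4 had a log2 fold change of 0.31 (edgeR adjusted p = 0.308), with 16.7 to 22.1 CPM (median 18.2) and 18.8 to 27.0 CPM (median 23.2). Top2a, topoisomerase II alpha, was at 3.26 to 10.9 CPM (median 4.27) in Cre- and 4.52 to 14.8 CPM (median 6.01) in BATdKO mice, and 1 mouse of each group set the upper end. Its log2 fold change was 0.37 (95% interval -0.17 to 0.91). The 3 members with negative values were Pcna at -0.06, Tk1 at -0.08 and Cdk2 at -0.09, each with an interval around 0.

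Of the marker lists, 1 gene was called between genotypes at 8 °C, the brown adipocyte receptor gene Adrb3 (log2 fold change -0.98, edgeR adjusted p = 0.0592). Endothelial markers summed to 202 to 266 CPM (median 239.9) and 203 to 259 CPM (median 224), macrophage markers to 184 to 279 CPM (median 200.2) and 217 to 251 CPM (median 221), and stromal markers to 179 to 272 CPM (median 185) and 159 to 191 CPM (median 172), with none of their 26 genes called. Skeletal muscle markers went from 1.34 to 488 CPM (median 170.3) to 0.782 to 54.4 CPM (median 16.3) with none of 7 called (5 lower at an unadjusted p under 0.05), and hepatocyte markers from 30397 to 36241 CPM (median 33207) to 31099 to 40113 CPM (median 34915) with none of 7 called. The part of these cells in the members' values was not tested. BATdKO mouse 1 at 8 °C, which had the highest Mki67, Top2a, Rrm1 and Nusap1 of its group, was the shallowest of that group with 2738613 counts.

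Between genotypes at 30 °C, edgeR's quasi-likelihood test called none of the 18 members and none of the 12485 genes (0% called), and DESeq2 called none of the members either. This comparison holds Cre- mouse 6 and BATdKO mouse 6, whose Tbl1xr1 lay in the range of the other label. Their brown adipocyte markers summed to 4079 and 1077 CPM, beside group medians of 1345 and 3003 CPM. Whether their labels were exchanged was not tested, and the cold comparisons and the interaction also hold these mice. At an unadjusted p under 0.05, 1 of 18 members was lower (Ccne2) and none higher, beside 5.14% of genes lower and 5.29% higher. Ccne2 stood at 1.37 to 5.35 CPM (median 4.29) in Cre- and 2.40 to 3.44 CPM (median 3.15) in BATdKO mice, a log2 fold change of -0.53 (edgeR adjusted p = 0.313). Aurka, the Aurora A kinase of spindle poles, was at 0.811 to 5.47 CPM (median 1.51) and 0.451 to 1.67 CPM (median 0.949), and the highest Cre- value is 4 counts in the shallow mouse 4. Its log2 fold change was -0.50 (95% interval -1.12 to 0.13) and that of Mki67 was 0.30 (-0.14 to 0.74). Leaving out 1 mouse at a time, the value ran from -0.69 to -0.35 for Aurka and from 0.21 to 0.50 for Mki67. The 0.50 for Mki67 came without Cre- mouse 6. Aurka was at -0.08 with the 3 doubted mice left out together (Cre- mice 4 and 6 and BATdKO mouse 6 at 30 °C). The median over the 18 members was 0.01 and 9 of 18 were positive, beside 47.8% of genes (-0.04 and 6 of 18 beside 36.8% on raw totals).

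Whether the change with cold itself differed between genotypes was tested by the interaction of genotype and temperature. No member passed in edgeR's quasi-likelihood test, where 0.0961% of genes did, and none in DESeq2. At an unadjusted p under 0.05, 3 of 18 were positive (Ccne2, Rrm1 and Mcm6) and none negative, beside 3.44% and 4.61% of genes. The interaction terms on the log2 scale were 0.76 for Ccne2 (SE 0.28, edgeR adjusted p = 0.485), 0.51 for Rrm1 (SE 0.21, adjusted p = 0.522) and 0.76 for Mcm6 (SE 0.37, adjusted p = 0.617). Of the 18 terms 15 were positive, beside 51% of genes, with a median of 0.37 beside 0.01. That Smc4 and Ccne2 were called in Cre- mice and Rrm1 in BATdKO mice is thus not shown to be a difference between genotypes.

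Between mice of one group, Mki67 and Top2a rose and fell together. In cold BATdKO mice, mouse 1 had both at their highest (9.58 and 14.8 CPM), and in cold Cre- mice, mouse 2 did (5.85 and 10.9 CPM). Over the 23 libraries of more than 1000000 counts, deviations of log2 CPM from the group means had a Pearson r of 0.79 (permutation p = 0.0001 within groups, 0.0153 after Benjamini-Hochberg adjustment over all 153 pairs of members) and a Spearman rho of 0.69 (permutation p = 0.00069). Without these 2 mice, the farthest from the median of Mki67, r was 0.62 (permutation p = 0.00333). The group means were still those of all 23 libraries, so this value is not free of these 2 mice. Within the 11 libraries at 30 °C r was 0.60 (permutation p = 0.0828), and within the 12 at 8 °C it was 0.86 (permutation p = 0.00128). No other pair passed, and the median r over the 153 pairs was 0.08, so that the 18 genes did not vary as 1 block at these counts.

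**Figure D3:**
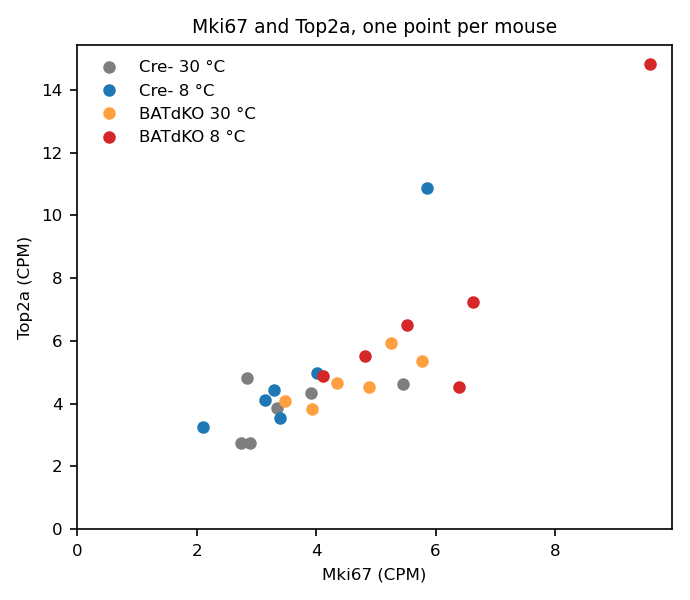
CPM of Top2a (vertical axis) against CPM of Mki67 (horizontal axis), 1 point per mouse, coloured by group. BATdKO mouse 1 and Cre- mouse 2 at 8 °C hold the highest values of Top2a (14.8 and 10.9 CPM), and the other mice lie at 2.73 to 7.24 CPM.

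The kinesin Kif23, which works at the midbody, was at 1.24 to 2.52 CPM (median 1.92) and 0.767 to 3.86 CPM (median 1.37) in Cre- mice and at 1.28 to 1.74 CPM (median 1.48) and 1.23 to 4.36 CPM (median 1.61) in BATdKO mice, warm and cold, with 1 high mouse in each cold group and no comparison past the threshold. Mcm7 in BATdKO mice was at 7.27 to 12.4 CPM (median 10.4) and 7.66 to 13.5 CPM (median 9.27), and Tk1 at 9.76 to 17.4 CPM (median 11.9) and 8.71 to 15.3 CPM (median 12.3), overlapping throughout.

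Other genes of the cell cycle were read from 3 further lists, chosen like the members with earlier results of these data known. Of 38 other S phase genes 22 were in the table, and cold in Cre- mice lowered 1 and raised none (3.59% and 5.57% of all genes), with 19 of 22 negative and a median log2 fold change of -0.16 beside -0.02 for all genes. That gene was Lig1, the DNA ligase that joins the lagging strand, at 11.9 to 16.2 CPM (median 14.5) warm and 9.21 to 11.6 CPM (median 9.92) cold, without overlap (log2 fold change -0.47, SE 0.11, edgeR adjusted p = 0.00792). Among all genes 0.745% were lower with cold in Cre- mice without overlap. Of 46 other mitosis genes 16 were in the table, and cold in Cre- mice lowered 3 and raised none by edgeR (3.59% and 5.57% of all genes), with a median of -0.27. DESeq2 called 2 of them lower, Pttg1 and Lmnb1, and not Hmgb2. Pttg1, securin, which inhibits the protease separase until chromatids part, went from 67.0 to 85.5 CPM (median 75.1) to 52.9 to 62.3 CPM (median 57.4) (log2 fold change -0.40, edgeR adjusted p = 0.000702). Lmnb1, lamin B1 (-0.57, edgeR adjusted p = 0.0675), lost its call without Cre- 8 °C mice 1 or 3 or Cre- 30 °C mice 1 or 3 (adjusted p 0.139 to 0.206). Hmgb2, a chromatin protein (-0.36, edgeR adjusted p = 0.0924), kept its call only without BATdKO 30 °C mice 1, 3, 4, 5 or 6, Cre- 30 °C mouse 6 or Cre- 8 °C mice 2 or 5, and reached 0.209 elsewhere. Neither list had a call with cold in BATdKO mice, between genotypes or for the interaction in edgeR's test or in DESeq2, though at an unadjusted p under 0.05 the S phase list held 2 of 22 lower with cold in BATdKO mice (8.66% of all genes), 2 higher at 8 °C (3.76%) and 1 higher at 30 °C (5.29%) in BATdKO mice and 1 positive interaction (3.44%). The mitosis list held, of 16, 1 lower with cold in BATdKO mice (8.66%), 4 higher at 8 °C (3.76%) and 1 lower at 30 °C (5.14%) in BATdKO mice and no interaction.

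Of 40 regulators and brakes of the cycle 31 were in the table, and with cold edgeR called 3 higher and 1 lower in Cre- mice (5.57% and 3.59% of all genes) and 2 higher and 1 lower in BATdKO mice (3.76% and 3.31%). At 8 °C 2 were higher and 1 lower in BATdKO mice (0.697% and 1.12% of all genes), at 30 °C none was called (3 higher and 3 lower at an unadjusted p under 0.05, beside 5.29% and 5.14% of all genes, and by DESeq2 only E2f2, lower), and no interaction passed in either tool (1 positive and 1 negative unadjusted, beside 3.44% and 4.61%). Exons of other genes overlap those of Cdkn1a (AC167363.2), Ccnd1 (LTO1) and Lig1 (Zswim9) on the other strand. For the groups without overlap named below, 1.75% of all genes were higher with cold in BATdKO mice without overlap. At 8 °C 1.07% of all genes were higher and 0.873% lower in BATdKO mice without overlap.

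Cdkn1a, the cyclin-dependent kinase inhibitor p21, rose with cold from 9.57 to 24.7 CPM (median 20.1) to 24.0 to 39.4 CPM (median 35.9) in Cre- mice and from 13.2 to 26.8 CPM (median 20.8) to 43.3 to 66.2 CPM (median 45.2) in BATdKO mice. Cold BATdKO mice did not overlap warm BATdKO mice or cold Cre- mice. The folds were 1.70 in Cre- mice (log2 0.77, SE 0.16, edgeR adjusted p = 0.00252) and 2.47 in BATdKO mice (log2 1.31, SE 0.16, adjusted p = 5.6e-06). Between genotypes at 8 °C it was 1.45-fold higher in BATdKO mice (edgeR adjusted p = 0.0874), a call that was lost without any 1 of 12 mice (all 6 Cre- and mice 1, 2, 5 and 6 of BATdKO at 8 °C, and mouse 2 of either genotype at 30 °C, adjusted p 0.101 to 0.224). The interaction, at 0.54, did not pass (adjusted p = 0.535).

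Cdkn2c, the kinase inhibitor p18, fell with cold in both genotypes and was higher in BATdKO mice at 8 °C. It went from 5.00 to 10.7 CPM (median 9.15) to 3.37 to 4.81 CPM (median 4.33) in Cre- mice and from 10.4 to 14.5 CPM (median 11.6) to 5.52 to 12.6 CPM (median 7.19) in BATdKO mice, where cold mouse 1 reached 12.6 CPM. The log2 fold changes with cold were -0.97 (edgeR adjusted p = 0.00165) and -0.70 (adjusted p = 0.0195). At 8 °C the genotypes did not overlap, with a log2 fold change of 0.81 (SE 0.20, edgeR adjusted p = 0.038, and 0.104 without BATdKO mouse 6). At 30 °C the log2 fold change was 0.54 (edgeR adjusted p = 0.238), which did not pass.

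E2f2, a transcription factor that activates S phase genes, rose with cold in Cre- mice from 4.84 to 9.76 CPM (median 6.55) to 9.74 to 15.1 CPM (median 13.0) (1.82-fold, log2 0.86, SE 0.15, edgeR adjusted p = 0.000448). In BATdKO mice it went from 2.54 to 5.40 CPM (median 4.66) to 5.09 to 6.53 CPM (median 6.07) (log2 0.39, adjusted p = 0.223), which did not pass. Cold BATdKO mice lay under all cold Cre- mice, 2.16-fold lower (log2 -1.11, SE 0.16, edgeR adjusted p = 0.000149, 3.73e-05 to 0.000695 without each mouse in turn), and the interaction of -0.47 (SE 0.23) did not pass. At 30 °C E2f2 was also lower in BATdKO mice (log2 -0.64, SE 0.17, edgeR adjusted p = 0.149), which did not pass in edgeR but was called by DESeq2. The 4 erythroid markers in the table were all called higher with cold in both genotypes. Between genotypes at 8 °C their median log2 fold change was -0.01, with none called. Whether red cell precursors, which also express E2f2, differed between groups was not tested.

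Tfdp1, the dimer partner of the E2F factors, was at 0.828 to 5.47 CPM (median 1.78) in warm and 2.25 to 4.58 CPM (median 2.88) in cold Cre- mice (log2 fold change 0.94, edgeR adjusted p = 0.023), where the shallow warm mouse 4 held the highest value and the exact permutation p was 0.0996. Ccnd1, cyclin D1, rose with cold in BATdKO mice from 2.85 to 5.01 CPM (median 4.12) to 5.66 to 8.77 CPM (median 6.21) without overlap (log2 fold change 0.71, edgeR adjusted p = 0.0425), a call lost without BATdKO mice 2 or 6 at 30 °C or mouse 4 at 8 °C (adjusted p 0.105, 0.1002 and 0.131). In Cre- mice it was at 3.13 to 12.3 CPM (median 4.20) and 4.35 to 8.33 CPM (median 5.93) (log2 fold change 0.42, adjusted p = 0.257). The 12.3 CPM was that of the shallow warm mouse 4, and the other warm Cre- mice were at 3.13 to 6.07 CPM.

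**Figure D4:**
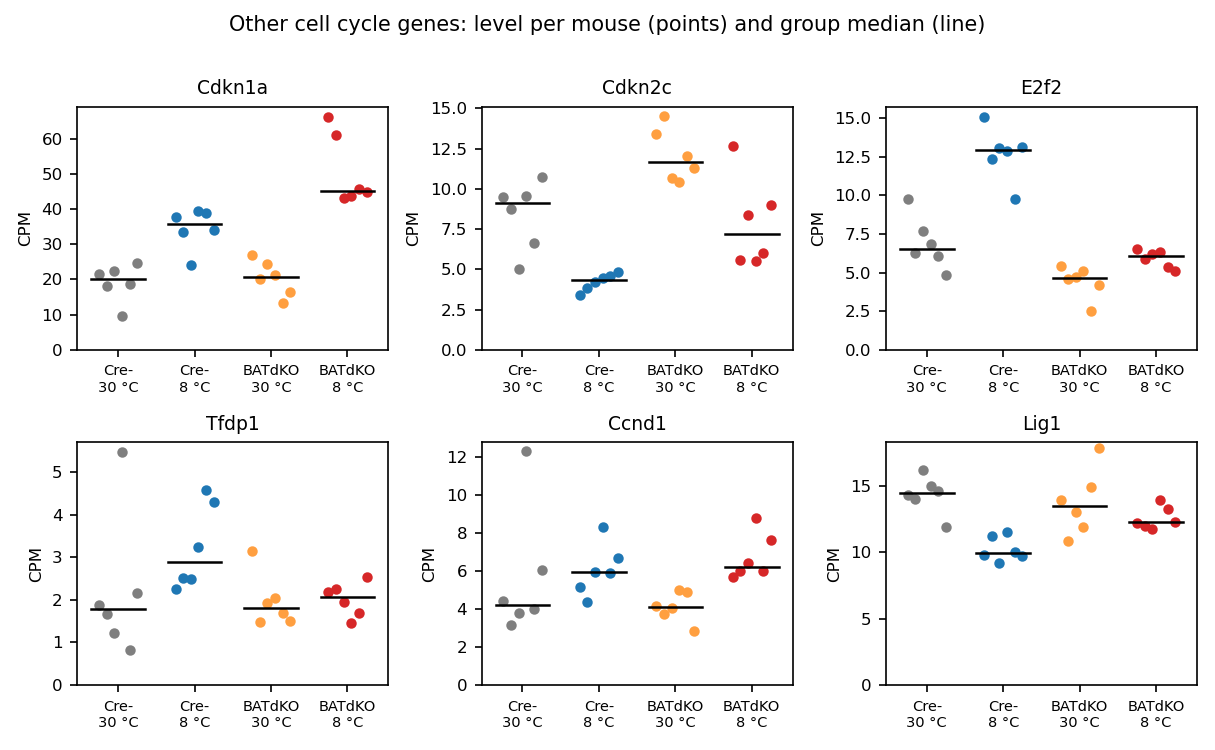
CPM (vertical axis, from 0) of Cdkn1a, Cdkn2c, E2f2, Tfdp1, Ccnd1 and Lig1 in each mouse (points) of the 4 groups, with the group median as a line. Cdkn1a is highest in cold BATdKO mice (43.3 to 66.2 CPM), E2f2 is highest in cold Cre- mice (9.74 to 15.1 CPM), and Cdkn2c and Lig1 are lowest there.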

How the data were processed

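Libraries were made by the authors from total RNA with a 3′ tag kit (QuantSeq FWD), trimmed with BBDuk, aligned with STAR to GRCm38 and summed per gene with Rsubread, and the authors removed outliers before their own tests. Which samples these were is not given in the sources used here. All 24 deposited libraries, 6 per group, were used, which is more than the group sizes the study states, so some may be ones the authors left out. The deposited values are raw counts per gene, with no normalization. The annotation and the strand setting are not given in the sources used here, and the submitters' notes name DESeq2.

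Counts were scaled by TMM and filtered with filterByExpr on the 4 groups, which left 12485 genes and removed 130. One mean per group was fitted over the 24 libraries with edgeR 4.0.16 (limma 3.58.1, R 4.3.3) and genes were called at a Benjamini-Hochberg adjusted p under 0.1. Exact permutation tests used log2 CPM with a prior count of 2. Total counts of 699703 to 11527643 set the precision, and intervals and p-values set differences between group means against the spread between mice. DESeq2 1.42.0, other filters, scalings and samples were alternatives. Scripts were tested on simulated data. Gene names were matched for 12608 of 12615 identifiers, and positions come from GENCODE vM21.

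Members and lists were chosen with earlier results of these data known. Levels are given for Mki67, Top2a, the most abundant member of each of the 6 roles, and per comparison for up to 5 called members or otherwise the 3 with the smallest p, and up to 4 called genes are named per further list. Marker genes were named after their values were seen.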

Additional observations from a re-analysis of the deposited data

Results flagged for a closer look

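Of 76 groups of 6 mice examined, which are 18 members and the sum of members in the 4 groups, 10 had a highest or lowest mouse far from the rest (its gap to the nearest mouse over the range of the group was above Dixon's 95% limit). Chance gives such a gap in about 1 in 20 groups. In the shallow Cre- mouse 4 at 30 °C, Mcm5 was at 4.10 CPM (3 counts), Aurka at 5.47 CPM (4 counts) and Ccne2 at 1.37 CPM (1 count). Mcm6 was at 2.14 CPM in BATdKO mouse 3 at 30 °C. In cold Cre- mouse 2, Tk1 was at 16.4 CPM and Top2a at 10.9 CPM. Kif23 was at 3.86 CPM in cold Cre- mouse 1, and Ccne2 at 5.18 CPM in cold Cre- mouse 3. In cold BATdKO mouse 1, Top2a was at 14.8 CPM (34 counts) and Kif23 at 4.36 CPM (10 counts).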

How the results depend on the processing

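No paired analysis was possible because the mouse numbers mark no shared animal, litter or day between groups. The count of members called for cold in Cre- mice was 2 and fell to 1 in a fit of Cre- mice alone, in DESeq2 on Cre- mice alone and at an adjusted p under 0.05, with Ccne2 the one lost (adjusted p = 0.125, 0.167 and 0.0608); the cause was not tested. For the genotypes at 8 °C the count was 0 and became 1 in DESeq2 (Mki67, adjusted p = 0.0725) and without the 3 doubted mice at 30 °C, and 2 in a fit of the 8 °C mice alone (Mki67 and Rrm1, adjusted p = 0.0850 and 0.0561) and in DESeq2 on those mice (0.0442 and 0.0943). Fits with DESeq2 on single comparisons and without the doubted mice were chosen after seeing the data. The share of all genes called in these other fits is not given here. On raw library totals in place of TMM, also chosen after seeing the data, the counts became 4 for cold in Cre- mice and 2 for cold in BATdKO mice, and Cdkn1a lost its call at 8 °C (adjusted p = 0.102). Over all genes, raw totals gave 433 called higher and 2826 lower with cold in Cre- mice, and 255 and 2557 in BATdKO mice. The median summed level in warm Cre- mice was 97.7 CPM with TMM and 105.1 CPM on raw totals, and that sum turned from higher to lower with cold in BATdKO mice. Leaving out 1 mouse at a time, the counts ran from 1 to 2 for cold in Cre- mice, 1 to 2 for cold in BATdKO mice, 0 to 1 for the genotypes at 8 °C (1 without Cre- 8 °C mouse 2, Cre- 30 °C mouse 6 or BATdKO 8 °C mouse 6) and 0 to 0 at 30 °C and for the interaction. On raw totals 4 members turned from positive to negative with cold in Cre- mice (Rrm1, Tk1, Cdk2 and Cdca8), 3 with cold in BATdKO mice (Ccne2, Smc2 and Cdca8) and 3 between genotypes at 30 °C (Tk1, Cdk2 and Smc2), none of them called in either fit. Depth limits the low members: 8 of 18 had a mean under 20 counts per library.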

Other observations

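The variance between mice of a group over that expected from counting alone had a median of 1.56 over the 18 members and 1.70 over the 8842 genes in the same range of mean counts, and 8 of the 18 were under 1.5. Top2a stood highest at 4.70, followed by Smc4 at 3.27 and Tk1 at 2.82, and Mcm6 was lowest at 0.958.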
